A study of Mus musculus with 8 samples.

Results

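Myeloid cells of the mouse brain that combined high major histocompatibility complex (MHC) class II transcripts with Cd209a, Ccr2 or Clec10a were examined after experimental stroke. They numbered 1324, which was 3.34% of the 39608 cells kept from the 39945 cells deposited. Cells were taken by a rule on unique molecular identifiers (UMIs, one per captured transcript). A cell needed at most 10% mitochondrial UMIs. Per 10000 UMIs it needed at least 50 of H2-Aa, H2-Ab1 and H2-Eb1 together and under 10 of the microglial genes P2ry12, Siglech, Gpr34, Sparc, Olfml3 and Fcrls together. In raw UMIs it needed at least 2 of Cd209a, Ccr2 and Clec10a together, none of Xcr1, Clec9a, Ccr7, Lyve1, Cd3e or Cd79a, and at most 2 of Csf3r. These cells are called class II monocyte-derived cells below, a name that describes the rule and not their origin. The rule had no limit that removed type 2 conventional dendritic cells. Whether the cells came from monocytes was not tested.

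The cells came from male C57BL/6J mice aged 8 to 9 weeks, all of which had undergone transient middle cerebral artery occlusion (tMCAO), in which a suture inside the artery stopped the blood flow for 60 min and was then withdrawn. The 8 libraries of 10x Genomics 3' single-cell RNA sequencing covered each combination of the hemisphere ipsilateral or contralateral to the occlusion, of 48 h or 24 h after it, and of mice labelled Prdx1-/- or wild type (WT, Prdx1+/+). Each combination was 1 library, the contralateral hemispheres were from operated mice, and no sham or naive brain is among the groups. Prdx1 encodes peroxiredoxin 1, a cytosolic enzyme that reduces hydrogen peroxide, and the labels do not give the number of mice behind a library or the deleted part of the gene. Brains were perfused before enzymatic dissociation, and live cells were sorted with no lineage marker named.

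MHC class II molecules present peptides to CD4 T cells. Their alpha and beta chains assemble on the invariant chain Cd74, which the H2-DM molecules help to replace with peptide, and the coactivator Ciita drives their transcription. Monocytes that enter inflamed tissue through the chemokine receptor Ccr2 can take on this programme together with the C-type lectins Cd209a and Clec10a, and such cells resemble type 2 conventional dendritic cells (cDC2) in many of their transcripts. In the healthy brain parenchyma most myeloid cells are microglia, whose class II levels are low.

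The 8 libraries held 24 to 451 class II monocyte-derived cells each, with a median of 14086.5 UMIs per cell and library medians of 12874.5 to 15338. A pair of libraries went against the label. Among the class II monocyte-derived cells, Prdx1 stood at 6.22, 5.82, 409.6 and 243 CPM (UMIs scaled to a common library total) in the libraries labelled Prdx1-/- (ipsilateral 48 h, contralateral 48 h, ipsilateral 24 h and contralateral 24 h), against 997, 651, 504 and 441 CPM in the WT libraries in that order. The 24 h libraries labelled Prdx1-/- thus held Prdx1 transcripts at levels near those of the 24 h WT libraries, and the 48 h ones held very few. Results are therefore also given without both 24 h libraries labelled Prdx1-/-. Any 2 libraries shared between 3 and 17 cell barcodes, 203 in all. Of these, 16 involved a class II monocyte-derived cell and 0 joined one such cell to another.

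Because the rule selected on class II, the levels of the rule genes are given as a description. The summed class II level per 10000 UMIs ranged from 50.2 to 996 with a median of 213 and quartiles of 117 and 319. The limit cut a continuous distribution, with 71 cells at 50 to 60 and 53 otherwise eligible cells at 40 to 50. Cd74 stood at 16541, 17070.0, 19022, 20132, 19653, 21539, 19138 and 24008 unscaled CPM in the ipsilateral and then the contralateral libraries, each set in the order labelled Prdx1-/- 48 h, WT 48 h, labelled Prdx1-/- 24 h and WT 24 h. This order is kept below wherever 4 values are given for a hemisphere. H2-Ab1, the class II beta chain, lay between 7650 and 9692 CPM, H2-Aa between 6473 and 9285 CPM and H2-Eb1 between 5525 and 9439 CPM. The highest value of each chain was in the 24 h contralateral WT library, which held 24 such cells, and the lowest in the ipsilateral 48 h library labelled Prdx1-/-.

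H2-Ab1, Cd209a, Clec10a and Ccr2 were genes of the rule, which in large part set how often they were detected, so that their levels describe the selection and do not test the label. Cd74 was not in the rule and had a UMI in each of the 1324 cells, as had H2-Ab1. Cd209a had a UMI in 479 cells (36.2%), against 1.82% of the class II-low cells described below and 0.177% of 18103 microglial cells with a median depth of 7142 to 14307 UMIs by library. Clec10a had a UMI in 622 cells (47.0%), against 13.3% of class II-low cells and 0.337% of microglial cells. Ccr2 had a UMI in 1292 cells (97.6%), and 592 cells (44.7%) entered the set with Ccr2 alone of the 3 genes. The rule therefore collected Ccr2-positive cells of high class II, of which a minority carried the lectin Cd209a. Xcr1, Clec9a, Ccr7, Lyve1, Cd3e and Cd79a were at 0 by the rule. Flt3, the growth factor receptor of dendritic cell progenitors, had a UMI in 36.0% of the cells, Ly6c2, a marker of classical monocytes, in 25.7%, and Zbtb46, a transcription factor of conventional dendritic cells, in 7.70%. No microglial gene of the rule had a UMI in 826 cells (62.4%), and 21 cells (1.59%) scored as doublets against 4.05% of all cells kept.

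Of the class II genes searched, most H2 genes share a feature of sequence that the rule did not use. Proximal promoters of class II genes carry the Y box, an inverted CCAAT element bound by NF-Y beside the X box elements. The letters TGATTGG, searched on both strands from 250 bases before to 50 bases after each start, occurred in 2568 of 32851 promoter entries of RefSeq (7.82%). Of the 15 genes of the class II list, 11 were counted in this search, and 7 of these held the letters. Cd74 was left out of the count, so nothing is said of its promoter. All 7 were among the 8 H2 genes with an entry. The stretches below run from base -110 to base -21 of each start (RefSeq, GRCm38.p6, chromosome 17), read 5′ to 3′ on the strand of the gene, with the match in capitals. They are shown because H2-Aa and H2-Eb1 were genes of the rule and the other 5 belong to the same gene family. A match describes the letters and does not show binding.
H2-Oa (chr17:34092269-34092358, plus strand): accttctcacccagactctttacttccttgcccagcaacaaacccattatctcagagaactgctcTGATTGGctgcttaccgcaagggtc
H2-DMb2 (chr17:34145139-34145228, plus strand): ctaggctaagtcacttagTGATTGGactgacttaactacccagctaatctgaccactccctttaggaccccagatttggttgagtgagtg
H2-DMb1 (chr17:34153081-34153170, plus strand): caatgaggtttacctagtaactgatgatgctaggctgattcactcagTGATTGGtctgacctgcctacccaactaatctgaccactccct
H2-Ob (chr17:34238795-34238884, plus strand): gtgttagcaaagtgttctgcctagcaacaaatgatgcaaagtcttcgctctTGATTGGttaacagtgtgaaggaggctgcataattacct
H2-Aa (chr17:34287844-34287933, minus strand): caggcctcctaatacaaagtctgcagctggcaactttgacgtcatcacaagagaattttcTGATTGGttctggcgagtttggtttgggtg
H2-Eb1 (chr17:34305757-34305846, plus strand): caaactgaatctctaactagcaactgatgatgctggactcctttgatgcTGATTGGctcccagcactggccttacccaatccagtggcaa
H2-Eb2 (chr17:34325565-34325654, plus strand): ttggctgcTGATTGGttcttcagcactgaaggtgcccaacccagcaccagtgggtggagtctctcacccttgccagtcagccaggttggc
H2-Aa encodes a chain of I-A and H2-Eb1 a chain of I-E, and whether these cells made either molecule was not measured. H2-DMb1 and H2-DMb2 encode chains of the peptide-loading molecule H2-DM, and H2-Oa and H2-Ob encode its modulator H2-O. H2-Eb2 is a further beta chain gene and was near 0 in these cells, as shown with the dendritic cells below. The match lay on the strand of the gene in all 7 promoters.

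**Figure D1:**
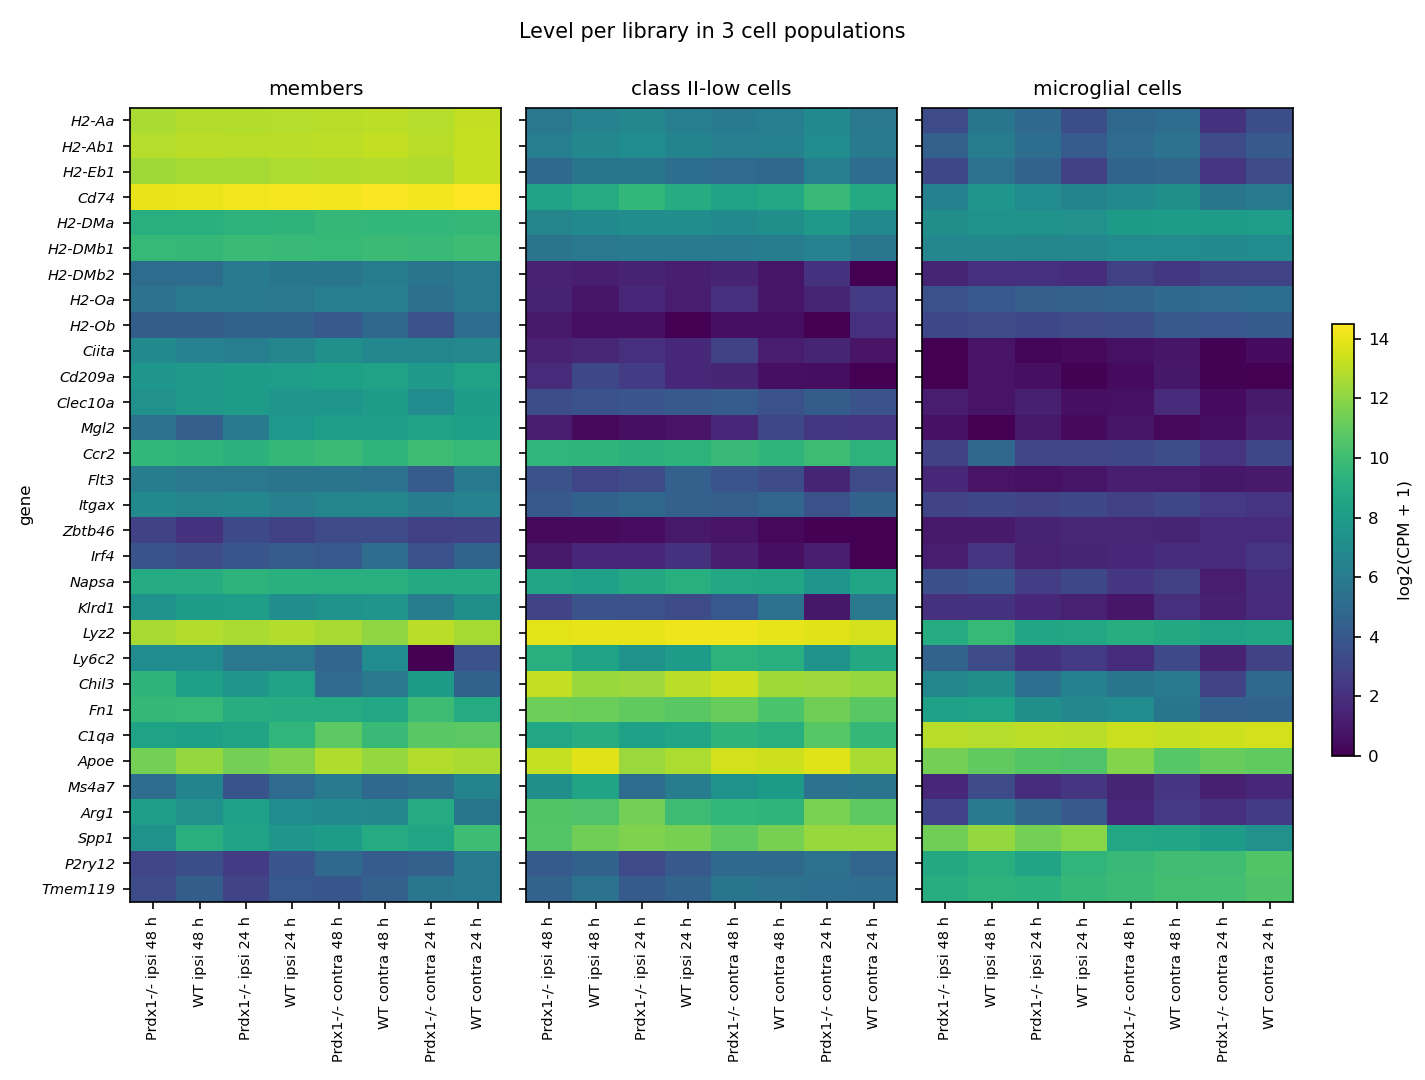
Level of 31 genes, as log2(CPM + 1), in each of the 8 libraries (columns) for the class II monocyte-derived cells (members), the class II-low cells and the microglial cells. Class II genes and Cd74 are brightest in the members in all 8 libraries, Lyz2 and Chil3 are brighter in the class II-low cells, and C1qa, P2ry12 and Tmem119 are brightest in the microglial cells.

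The first comparison asked how large the population was in each hemisphere. Class II monocyte-derived cells made up 3.47%, 8.78%, 5.09% and 2.49% of the cells kept in the ipsilateral libraries, against 2.71%, 2.33%, 0.731% and 0.506% in the contralateral ones. The ipsilateral share was higher in 4 of 4 matched pairs, by 1.28-fold (labelled Prdx1-/-, 48 h), 3.76-fold (WT, 48 h), 6.96-fold (labelled Prdx1-/-, 24 h) and 4.92-fold (WT, 24 h). The highest contralateral share exceeded the lowest ipsilateral share. Shares averaged 4.96 ± 2.77% in ipsilateral and 1.57 ± 1.11% in contralateral libraries (SD, n = 4 each), a mean log2 difference of 1.84. The exact two-sided permutation test over libraries gave p = 0.0571 (0.171 after Benjamini-Hochberg adjustment over the 3 factors), where the smallest p that this design allows is 0.0286. Without the 48 h contralateral library labelled Prdx1-/- the log2 difference was 2.22 (exact permutation p = 0.0286). With the 48 h libraries alone it was 1.13 (exact permutation p = 0.333, the smallest that 2 against 2 libraries allow).

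The direction depended on the denominator. Among cells with a microglial sum under 10 per 10000 UMIs, the class II monocyte-derived cells were 3.88%, 10.03%, 8.28% and 5.19% in ipsilateral libraries, against 9.13%, 11.04%, 11.05% and 6.86% in contralateral ones. The log2 difference in that denominator was -0.55 (exact permutation p = 0.2). A share of cells reports relative numbers and gives no count of cells per hemisphere.

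Between 48 h and 24 h the share of all cells was 3.47% and 5.09% in ipsilateral libraries labelled Prdx1-/-, 8.78% and 2.49% in ipsilateral WT libraries, 2.71% and 0.731% in contralateral libraries labelled Prdx1-/-, and 2.33% and 0.506% in contralateral WT libraries. It was higher at 48 h in 3 of 4 pairs (log2 difference 1.34, exact permutation p = 0.229). Among cells with a low microglial sum that difference was 0.0669 (exact permutation p = 0.914), and with 1 library left out the difference in the share of all cells was 0.827 to 1.94. No difference by genotype was detected (log2 difference 0.11, labelled Prdx1-/- minus WT, exact permutation p = 0.943), with pair values between -1.34 (ipsilateral, 48 h) and 1.03 (ipsilateral, 24 h).

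Cells that met every other limit but held under 50 class II UMIs per 10000 numbered 5490 and are called class II-low cells. The class II monocyte-derived cells were 11.8%, 19.7%, 20.8% and 22.6% of both populations together in ipsilateral libraries, against 25.4%, 28.6%, 23.5% and 22.6% in contralateral ones. The ipsilateral fraction was lower in 4 of 4 pairs, with both values of the 24 h WT pair equal to 3 digits. The fraction averaged 18.7 ± 4.75% in ipsilateral and 25.02 ± 2.65% in contralateral libraries (SD, n = 4 each). The exact permutation p was 0.0286, the smallest possible, and 0.0857 after adjustment over the 3 factors, so the difference did not pass the correction. After cells had been thinned to 3000 UMIs the log2 difference was -0.22 in place of -0.45 (exact permutation p = 0.543). The 1234 cells kept that were shallower than this were left out of it. Of these, 356 were in the ipsilateral 48 h WT library and 408 in the ipsilateral 48 h library labelled Prdx1-/-.

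**Figure D2:**
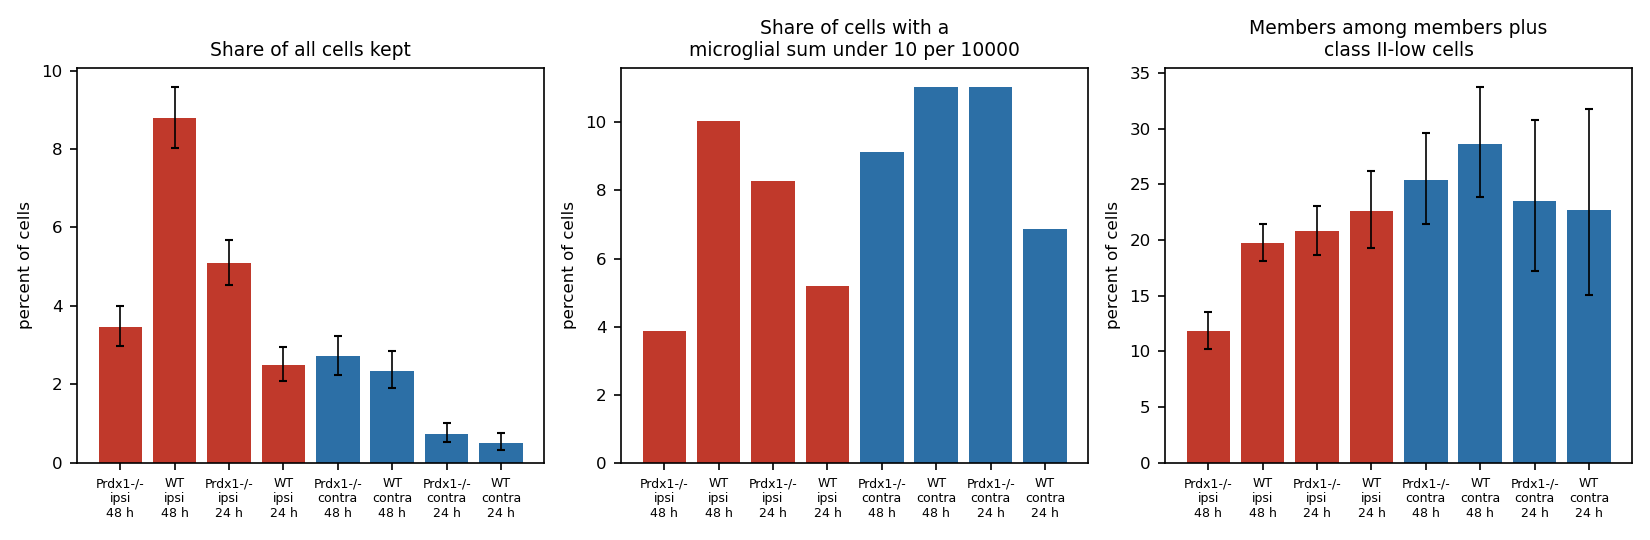
Percent of cells that were class II monocyte-derived cells (members) in each library, among all cells kept (left), among cells with a low microglial sum (middle) and among members plus class II-low cells (right). Red bars are ipsilateral and blue bars contralateral libraries, and bars with whiskers carry exact 95% binomial intervals, which cover counting error only. The ipsilateral bars reach 8.78% on the left, whereas in the middle the contralateral bars reach 11.05%.

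The cells were set beside the class II-low cells, from which they differ by rule in class II, in all 8 libraries. Each population was summed per library, and levels are CPM scaled by trimmed means of M values (TMM). The difference is a description, since class II chose the cells. Of 10537 genes outside the rule, 3839 (36.4%) had a Benjamini-Hochberg adjusted p under 0.05 in edgeR's quasi-likelihood test, and nothing further is read from that count. Of the class II list, 8 of 10 tested genes were higher and 1, the lysosomal protease gene Lgmn, was lower, with a median log2 difference of 4.44 against 0.01 over all genes. Cd74 had a lowest, median and highest level of 15751, 20062 and 25116 CPM in the class II monocyte-derived cells, against 301, 460.5 and 867 CPM in class II-low cells. Ciita had 80.8, 107 and 143 CPM, against 0.665, 1.84 and 5.82 CPM in class II-low cells, and H2-DMb1 had 792, 934 and 1064 CPM, against 44.7, 58.8 and 83.1 CPM. All 3 genes were higher in 8 of 8 libraries without overlap between the populations, by log2 values of 5.35, 5.43 and 3.94.

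The monocyte-derived dendritic and cDC2 list followed class II, with 16 of 18 tested genes higher, none lower and a median log2 difference of 2.28. Mgl2, a C-type lectin closely related to Clec10a in sequence, so that reads may be shared between the 2 genes, had 20.8, 239 and 344 CPM (lowest, median and highest library), against 0.267, 1.58 and 7.74 CPM in class II-low cells. Flt3 had 17.3, 51.6 and 65.1 CPM, against 1.75, 9.45 and 21.6 CPM, and Itgax, which encodes CD11c, had 69.2, 95.4 and 116 CPM, against 10.9, 21.0 and 30.8 CPM. The peptidase gene Dpp4 (log2 difference 3.77), the lectin-like receptor gene Klrd1 (3.80) and Zbtb46 (3.92) were also higher in 8 of 8 libraries. Costimulation was in part higher, with 6 of 11 genes, among them Cd40 at a mean of 28.8 CPM against 5.15 CPM, Icosl at 47.6 against 11.5 CPM, Cd83 at 466 against 157 CPM and Cd86 at 298 against 181 CPM.

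Genes of monocytes and of repair macrophages were lower in the class II monocyte-derived cells. Chil3, a chitinase-like secreted protein of monocytes, had 22.6, 232 and 664 CPM (lowest, median and highest), against 4352, 5506 and 10169 CPM in class II-low cells. Arg1, the arginase of repair macrophages, had 51.6, 152 and 488 CPM, against 695, 1449 and 3003 CPM, and Fn1, fibronectin, had 426, 550.1 and 1009 CPM, against 1311, 2158 and 2503 CPM. The 3 genes were lower in 8 of 8 libraries, by log2 values of -5.16, -2.98 and -1.71. Of the classical monocyte list 8 of 13 genes were lower and none higher, of the macrophage list 10 of 14, of the lipid-associated and repair list 9 of 12, of the glycolysis and hypoxia list 17 of 20 (Pfkp higher), and of the proliferation list 10 of 20 (H2afz higher). The secreted defence proteins Saa3, Slpi and Lcn2 averaged 41.9, 23.5 and 19.4 CPM in the class II monocyte-derived cells, against 905, 525 and 388 CPM in class II-low cells. Lyz2 stayed abundant in both, at a mean of 6603 CPM against 15513 CPM.

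Dendritic cells that the rule set apart numbered 150 and had at least 2 UMIs of Xcr1, Clec9a and Ccr7. Of the libraries, 2 held at least 20 of them (ipsilateral WT 48 h and ipsilateral labelled Prdx1-/- 24 h). Against them, 1085 of 8787 genes (12.3%) had an adjusted p under 0.05 in edgeR's quasi-likelihood test, 526 (5.99%) higher and 559 (6.36%) lower in the class II monocyte-derived cells. This is again a description, since the rule used dendritic cell genes, and it does not cover cDC2 without these genes. Hp, haptoglobin, had 126 and 112 CPM in the class II monocyte-derived cells (WT 48 h and labelled Prdx1-/- 24 h), against 8.42 and 5.98 CPM in dendritic cells. Lyz2 had 7033 and 6583 CPM, against 1485 and 1059 CPM, and Ly6c2, which is nearly identical to Ly6c1, so that reads may be shared, had 130.3 and 54.2 CPM, against 15.8 and 4.48 CPM. Of the classical monocyte list 7 of 12 genes were higher and none lower, and of the macrophage list 10 of 14 were higher and 1, Cd63, lower. Their members included C1qa (log2 difference 1.37), the Fc receptor gene Fcgr1 (1.54) and Csf1r, the receptor for colony stimulating factor 1 (1.25).

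Ccl22, a chemokine of mature dendritic cells, had 3.38 and 7.64 CPM in the class II monocyte-derived cells, against 182 and 394 CPM in dendritic cells. Irf8, a transcription factor of type 1 dendritic cells and monocytes, had 55.6 and 57.5 CPM, against 323 and 397 CPM, and its partner Batf3 had 10.0 and 19.8 CPM, against 120.0 and 123 CPM. H2-Eb2, whose promoter is shown above, averaged 1.25 CPM against 49.96 CPM. Of the monocyte-derived dendritic and cDC2 list 9 of 18 genes were lower and 1 higher, and of the class II list 6 of 11 were lower and 2 higher. Costimulation had 5 of 12 genes lower and 1 higher, and the list of interferon gamma targets 7 of 15 lower and none higher. Flt3 was lower in the class II monocyte-derived cells than in dendritic cells (log2 difference -1.24), although it was higher than in class II-low cells. With at least 10 cells per sum, 1098 genes passed. The 10 microglial markers summed to 2432 and 2776 CPM in the class II monocyte-derived cells (WT 48 h and labelled Prdx1-/- 24 h), against 7682 and 8909 CPM in dendritic cells, and their part in these differences was not tested.

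The class II monocyte-derived cells were not uniform. Cells with a Cd209a UMI were set beside cells without one in the 6 libraries with at least 20 of each, which excludes both 24 h contralateral libraries. Their depth was similar, with median UMIs per library of 12102 to 15158 with Cd209a and 13379 to 15470.5 without. Of 7915 genes, 1874 (23.7%) had an adjusted p under 0.05 in edgeR's quasi-likelihood test, 1006 (12.7%) higher and 868 (11%) lower with Cd209a. When cells were thinned to 3000 UMIs before the split, 718 passed. Cd209a was a gene of the rule, so that the split is given as a description. Whether the cells with Cd209a were cDC2 was not tested.

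Dendritic transcripts went with Cd209a. Of the monocyte-derived dendritic and cDC2 list 14 of 16 tested genes were higher and 1, Sirpa, lower, with a median log2 difference of 1.76. Flt3 had 139, 108, 113, 90.9, 103 and 72.3 CPM with Cd209a (ipsilateral labelled Prdx1-/- 48 h, WT 48 h, labelled Prdx1-/- 24 h and WT 24 h, then contralateral labelled Prdx1-/- 48 h and WT 48 h), against 41.5, 22.0, 25.6, 25.6, 10.4 and 26.5 CPM without. Each value with Cd209a exceeded each value without it. Zbtb46 had lowest, median and highest values of 7.39, 14.3 and 19.1 CPM with Cd209a, against 1.12, 4.03 and 5.12 CPM without. Cd7, Klrb1b and Klrd1, surface receptors of lymphoid and some dendritic cells, averaged 136, 146 and 369.5 CPM with Cd209a, against 18.3, 33.4 and 111 CPM without. Class II was mostly higher too, although all these cells passed the same limit. Of the class II list 7 of 10 tested genes were higher and 2 lower, with a median log2 difference of 0.57. Cd74 averaged 23877 CPM against 16620.0 CPM, Ciita 157 against 78.9 CPM, and H2-Oa 117 against 30.6 CPM, each higher in 6 of 6 libraries. Mgl2 had 46.4, 50.9, 147, 422, 487 and 577 CPM with Cd209a, against 36.1, 3.37, 28.6, 102, 137 and 135 CPM without. Within each set it varied widely among libraries, the contralateral values being the highest with Cd209a and the ipsilateral WT 48 h value the lowest without.

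Macrophage transcripts went the other way. C1qa, a chain of complement C1q, had 38.9, 50.1, 39.0, 157, 479 and 213 CPM with Cd209a, against 396, 444, 538, 1071, 2559 and 1262 CPM without. Apoe, apolipoprotein E, had 507, 973, 484, 659, 2161 and 605 CPM with Cd209a, against 3333, 6749.8, 4157, 5007, 9173 and 7199 CPM without. In every library both genes were lower with Cd209a, by log2 values of -2.95 and -2.86. Ms4a7, a marker of monocyte-derived macrophages, averaged 4.67 CPM against 63.5 CPM, Spp1, osteopontin, 57.8 against 483 CPM, and the chemokine Cxcl2 469.6 against 2460.0 CPM. Of the macrophage list 13 of 14 genes were lower and none higher, of the lipid-associated and repair list 11 of 12, of NRF2 targets 11 of 17 and of glycolysis and hypoxia 14 of 20 (Pfkp higher). The transcription factor gene Maf, which acts in macrophages, was lower with Cd209a (log2 difference -2.12), and Irf4, which acts in cDC2, was higher (1.50, in 5 of 6 libraries).

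The share with a Cd209a UMI was 26.3%, 39.2%, 35.9% and 35.6% in ipsilateral libraries, against 39.3%, 40.2%, 21.1% and 50% in contralateral ones. No difference in it between hemispheres, times or genotypes was detected (exact permutation p = 0.743, 0.8 and 0.143, n = 4 libraries each). The 24 h contralateral libraries gave its extremes and held 38 and 24 class II monocyte-derived cells.

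**Figure D3:**
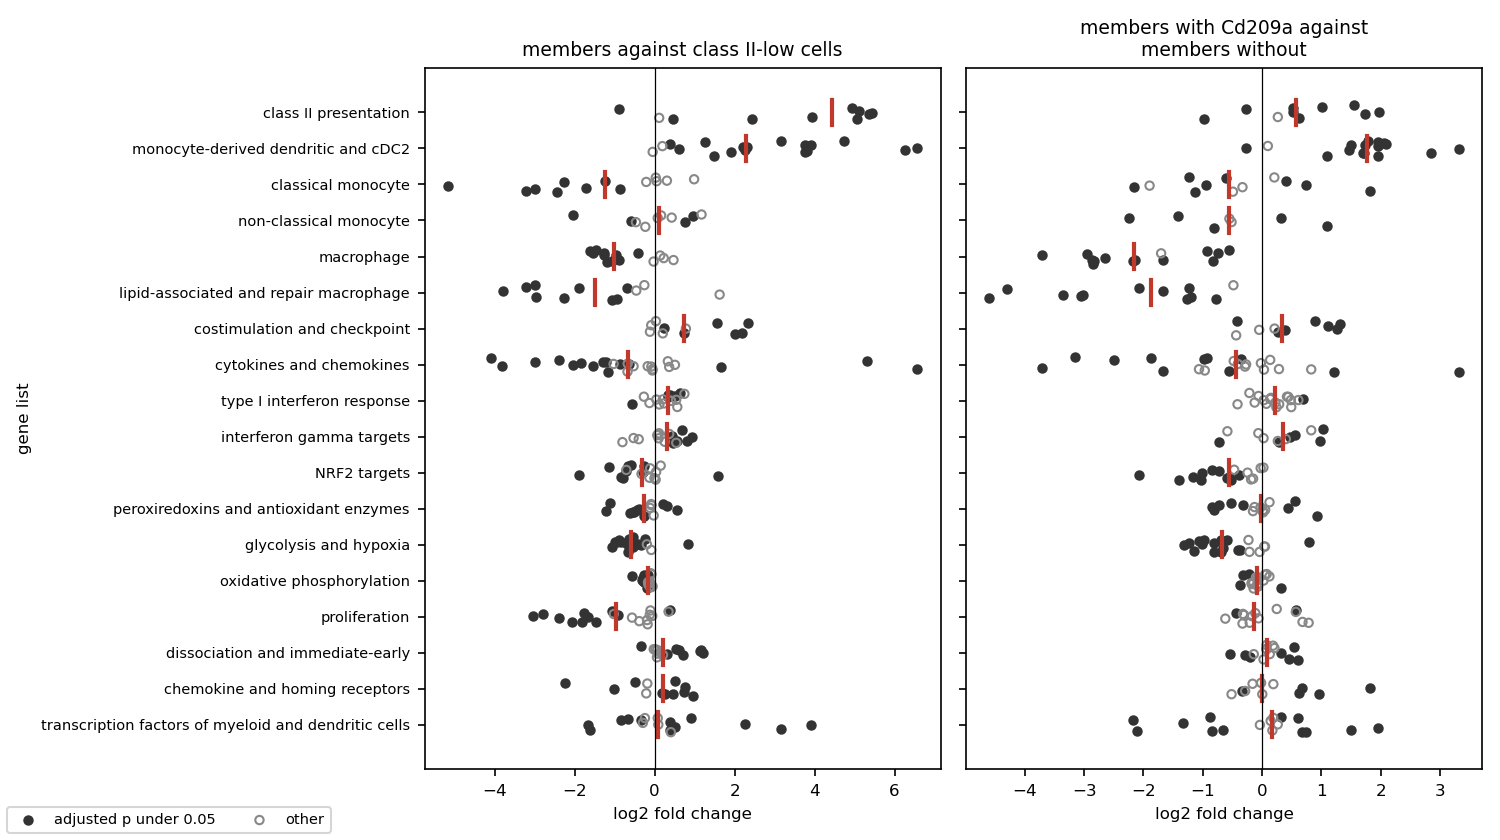
Log2 differences (x axis) of the tested genes of 18 lists (rows) for the class II monocyte-derived cells (members) against class II-low cells in 8 libraries (left), and for members with a Cd209a UMI against members without in 6 libraries (right). Each point is a gene outside the rule, filled where the adjusted p was under 0.05, and red bars are list medians. Medians of the class II and dendritic lists lie to the right in both panels, at 4.44 and 2.28 in the left panel. Those of the macrophage and lipid-associated lists lie to the left.

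Hemisphere, time and genotype were not used by the rule, and their effects on expression were tested. Counts were summed over the class II monocyte-derived cells of each library and fitted with all 3 factors by edgeR's quasi-likelihood test. Since each combination was 1 library, the spread was estimated across the combinations, under a model without interactions. Adjusted p is Benjamini-Hochberg over all 8685 genes tested.

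Between the hemispheres, Clec4d, Hp, Adora2b and 8 of 17 NRF2 targets were higher in the ipsilateral class II monocyte-derived cells, and Ccl12, C1qb and 6 of 15 immediate-early genes were lower. In all, 190 genes (2.19%) rose and 168 (1.93%) fell, together 4.12% of those tested. Without both 24 h libraries labelled Prdx1-/-, 486 genes passed. Single libraries weighed on the count, which was 136 without the contralateral 48 h library labelled Prdx1-/-, 166 without the ipsilateral 48 h WT library and 220 without the ipsilateral 24 h library labelled Prdx1-/-. Clec4d, an activating C-type lectin, had 219, 267, 203 and 144 CPM in ipsilateral libraries, against 60.5, 41.4, 59.4 and 23.0 CPM in contralateral ones (log2 difference 2.19 ± 0.19 SE, adjusted p = 3.55e-06). Hp had 197, 130.3, 117 and 122 CPM in ipsilateral libraries, against 33.1, 29.6, 46.0 and 29.6 CPM in contralateral ones (2.11 ± 0.17, adjusted p = 4.34e-07). Adora2b, an adenosine receptor, had 82.9, 81.7, 106 and 67.7 CPM in ipsilateral libraries, against 26.8, 38.1, 17.3 and 13.2 CPM in contralateral ones (1.66 ± 0.23, adjusted p = 9.49e-04). The hemispheres did not overlap in any of the 3 genes. Id3, an inhibitor of basic helix-loop-helix factors, also rose (1.28 ± 0.14), as did the sheddase gene Adam8 (1.41), Tnfaip2 (1.20), Cd93 (1.19) and Timp1, an inhibitor of metalloproteinases (1.14). These 8 genes passed whichever of the 8 libraries was left out.

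Transcripts of neutrophils and microglia moved with these results. The 8 neutrophil markers, all detected, summed to 701 to 1802 CPM in the ipsilateral class II monocyte-derived cells, against 169 to 245 CPM in the contralateral ones. The 10 microglial markers, all detected, summed to 2358 to 2798 CPM, against 3600 to 4877 CPM, and the 6 microglial genes of the rule to 24.0 to 80.2 CPM, against 94.3 to 247 CPM. The 4 erythrocyte markers, all detected, summed to 29.8 to 7583 CPM in ipsilateral libraries, against 9.49 to 4850 CPM in contralateral ones, with overlap, and their part in these results was not tested. A level that neutrophil or microglial RNA could add was computed from the ratio of tracer genes (S100a8, S100a9 and Retnlg for cells with at least 3 Csf3r UMIs, and the 6 microglial genes with Tmem119 for microglial cells), a calculation added after the data had been seen. The rule capped the 6 microglial genes in these cells, so the selection held down the microglial levels computed from them. For the ipsilateral level of Hp the neutrophil share came to 2.34 to 13.1%, for Clec4d to 0.846 to 6.59%, for Tnfaip2 to 0.988 to 5.95%, for Adam8 to 0.428 to 3.15% and for Adora2b to 0.0566 to 0.313%.

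NRF2, a transcription factor of the oxidative stress response, drives a set of antioxidant and detoxifying genes. Of its 17 tested targets, 8 rose ipsilaterally and none fell, with a median log2 difference of 0.69 against -0.02 over all genes. Srxn1, sulfiredoxin, which restores oxidised peroxiredoxins, had 80.9, 60.1, 44.2 and 50.4 CPM in ipsilateral libraries, against 23.3, 18.4, 32.6 and 26.3 CPM in contralateral ones (1.38 ± 0.21, adjusted p = 5.61e-04). Txnrd1, thioredoxin reductase, had 229, 188, 140.2 and 140.4 CPM in ipsilateral libraries, against 114, 100.5, 67.1 and 88.8 CPM in contralateral ones (0.92 ± 0.14, adjusted p = 2.99e-04). Gsr, glutathione reductase, had 293, 258, 285 and 232 CPM in ipsilateral libraries, against 126, 127, 138 and 92.1 CPM in contralateral ones (1.13 ± 0.13, adjusted p = 3.21e-05). Each was higher in every ipsilateral library than in any contralateral one. The others that rose were Esd (0.79), Gclm, a subunit of the enzyme that starts glutathione synthesis (0.97), the autophagy receptor gene Sqstm1 (0.74), thioredoxin Txn1 (0.49) and the ferritin heavy chain Fth1 (0.44). Srxn1, Txnrd1, Gsr and Esd passed whichever library was left out. Gclm, Sqstm1, Txn1 and Fth1 missed the threshold without the contralateral 48 h library labelled Prdx1-/- (adjusted p = 0.19, 0.136, 0.317 and 0.112) and without further single libraries, among them the ipsilateral 48 h library labelled Prdx1-/- for Gclm (0.131), Sqstm1 (0.126) and Txn1 (0.0948) and the ipsilateral 48 h WT library for Sqstm1 (0.107), Txn1 (0.281) and Fth1 (0.108). Hmox1 did not pass over all 8 libraries, with 270.3, 178, 78.4 and 115 CPM in ipsilateral libraries, against 97.7, 59.1, 84.4 and 85.5 CPM in contralateral ones (adjusted p = 0.3). It passed without both 24 h libraries labelled Prdx1-/- (1.29, adjusted p = 0.000536), without the ipsilateral one alone (1.29, adjusted p = 0.000757), with the 48 h libraries alone (1.53, adjusted p = 3.47e-10), with at least 50 cells per library (0.0351) and with no filter on low counts (1.16e-05). Among 15 peroxiredoxins and antioxidant enzymes 3 rose, which were Prdx6 (0.80 ± 0.15), Sod2 (0.54) and Glrx (0.69, adjusted p = 0.0479). Sod2 missed the threshold without any 1 of 4 libraries, with the highest adjusted p, 0.0998, without the ipsilateral 48 h library labelled Prdx1-/-. Glrx did so without any 1 of 6 libraries, with the highest adjusted p, 0.195, without the same library.

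Among cytokines and chemokines 3 of 22 fell and none rose. Ccl12, a ligand of Ccr2, had 12.1, 6.70, 20.8 and 30.8 CPM in ipsilateral libraries, against 75.02, 84.1, 203 and 303 CPM in contralateral ones (-3.25 ± 0.19, adjusted p = 9.74e-09). Ccl4, a CC chemokine, had 225, 289, 577 and 1121 CPM in ipsilateral libraries, against 1052, 939, 1415 and 3294 CPM in contralateral ones (-1.73 ± 0.26, adjusted p = 0.0173). The Ccl12 values were apart, while the ipsilateral WT 24 h value of Ccl4 lay above 2 contralateral ones. Ccl4 missed the threshold without the ipsilateral library labelled Prdx1-/- at 24 h (adjusted p = 0.17) or at 48 h (0.106). Ccl22 also fell, at a mean of 6.33 CPM in ipsilateral and 24.7 CPM in contralateral libraries, which did not pass without both 24 h libraries labelled Prdx1-/- (adjusted p = 0.27). By the microglial tracer ratio, microglial RNA would give 52.4 to 218% of the ipsilateral and 5.09 to 23.2% of the contralateral Ccl12 level, and 11.2 to 26.8% and 4.46 to 13.1% of Ccl4.

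Of the macrophage list 3 of 14 genes fell and none rose, with a median of -0.58. C1qb had 607, 645, 652 and 1051 CPM in ipsilateral libraries, against 1987, 1281, 2153 and 2293 CPM in contralateral ones (-1.39 ± 0.17, adjusted p = 4.19e-04). C1qc fell likewise (-1.69, adjusted p = 0.00855; 0.0551 without the ipsilateral 48 h WT library and 0.0583 without the ipsilateral 48 h library labelled Prdx1-/-), while C1qa had 312, 306, 373 and 756 CPM against 1749, 888, 1806 and 1938 CPM and missed the threshold (adjusted p = 0.0667). C1qa passed by DESeq2 (-1.90, adjusted p = 3.1e-11), with no filter on low counts (-1.86, 8.73e-13), with the 48 h libraries alone (-2.01, 0.000688) and without any 1 of 3 libraries (adjusted p up to 0.0229). Microglial RNA at the tracer ratio would give 6.79 to 10.96% of the ipsilateral and 8.85 to 14.6% of the contralateral C1qb level. Axl, a receptor of apoptotic cell uptake, had 33.2, 43.7, 26.3 and 63.8 CPM in ipsilateral libraries, against 124, 104, 171 and 141 CPM in contralateral ones (-1.74 ± 0.26, adjusted p = 0.00913), with at most 0.288% by that ratio. The inhibitory lectin gene Clec12a (-1.42 ± 0.14) and the prostaglandin receptor gene Ptger4 (-1.23) fell too. The third gene of the list was Adgre1, which encodes F4/80 (-0.71, adjusted p = 0.0374), and which missed the threshold without both 24 h libraries labelled Prdx1-/- (0.0569) or without any 1 of 6 libraries. C1q transcripts were lower in cells with Cd209a, and the share of such cells was 34.2 ± 5.56% in ipsilateral and 37.6 ± 12.1% in contralateral libraries (SD, n = 4 each).

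Of 15 immediate-early genes, which also respond to dissociation, 6 fell and none rose (median -0.82). Fos had 959, 825, 943 and 1145 CPM in ipsilateral libraries, against 1673, 1371, 1628 and 2208 CPM in contralateral ones (-0.82 ± 0.13, adjusted p = 3.82e-04). Zfp36, which destabilises cytokine mRNA, had 709, 717, 858 and 992 CPM in ipsilateral libraries, against 1734, 1104, 1940.1 and 2063 CPM in contralateral ones (-1.05 ± 0.13, adjusted p = 6.32e-05). The other 4 were Atf3 (-1.03), Dusp1 (-0.83), Jund (-0.50) and Junb (-0.44). Fos, Zfp36, Atf3 and Dusp1 passed whichever library was left out, whereas Jund and Junb missed the threshold without the contralateral 48 h library labelled Prdx1-/- (adjusted p = 0.0921 and 0.242), the ipsilateral 48 h WT library (0.101 and 0.114) or the contralateral 24 h WT library (0.0782 and 0.213). Junb also did so without the ipsilateral 24 h WT library (0.0997) or the ipsilateral 48 h library labelled Prdx1-/- (0.0509). By the microglial tracer ratio, microglial RNA would give 2.53 to 8.28% of the contralateral Fos level and 2.69 to 5.10% of that of Zfp36.

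Over all 8 libraries, of 10 class II genes outside the rule none rose and 1 fell between hemispheres, the ubiquitin ligase gene March1 (-0.66, adjusted p = 0.021), which missed the threshold without any 1 of 5 libraries (adjusted p up to 0.104, without the ipsilateral 48 h WT library). Cd74 had 15476, 17266, 20063 and 20500.0 CPM in ipsilateral libraries, against 18365, 22199, 19327 and 25624 CPM in contralateral ones (adjusted p = 0.143). It passed without both 24 h libraries labelled Prdx1-/- (-0.31, adjusted p = 0.000403), without the ipsilateral one of them (-0.28, adjusted p = 0.00782) and with the 48 h libraries alone (-0.30, adjusted p = 0.00728). H2-DMa also passed without both (-0.38, adjusted p = 0.0412). Of 10 costimulation genes Cd80 rose (0.89 ± 0.19), whereas Icosl (-0.86), Slamf7 (-0.94) and Cd40 (-0.70, adjusted p = 0.0299) fell. Of these 4, Slamf7 passed whichever library was left out, and without the contralateral 48 h library labelled Prdx1-/- the adjusted p was 0.1 for Cd80, 0.0948 for Icosl and 0.198 for Cd40. Each of these 3 also missed the threshold without other single libraries, among them the ipsilateral 24 h library labelled Prdx1-/- for Cd80 (0.0579). For Icosl (0.0693) and Cd40 (0.113) the ipsilateral 48 h WT library was among them. Cd40 also missed it without both 24 h libraries labelled Prdx1-/- (0.0576) and by DESeq2 (0.148). The adhesion receptor gene Cd44 rose (0.87 ± 0.14). Over all 8 libraries, none of the 17 type I interferon genes passed, and none of the 20 genes of oxidative phosphorylation. Mgl2 had 38.4, 20.2, 68.7 and 212 CPM in ipsilateral libraries, against 262, 291, 343 and 319 CPM in contralateral ones, without overlap but with adjusted p = 0.202. It passed by DESeq2 (-2.25, adjusted p = 0.0144), with the 48 h libraries alone (-3.32, 0.00343) and without the ipsilateral 24 h WT library (-2.95, 0.000627).

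The remaining lists gave few calls. Of 17 transcription factors of myeloid and dendritic cells, 3 fell, which were Batf3 (-0.92), Cebpa (-0.73) and Maf (-0.79). Of 20 genes of glycolysis and hypoxia, 2 rose, the pyruvate kinase gene Pkm (0.52) and Hif1a (0.68). The lipid droplet gene Plin2 was the 1 of 12 lipid-associated genes to rise (0.60), and Ifitm6 the 1 of 17 on the monocyte-derived dendritic list (0.76). Of these, none passed without the contralateral 48 h library labelled Prdx1-/- (adjusted p = 0.112, 0.288, 0.218, 0.195, 0.141, 0.104 and 0.056).

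**Figure D4:**
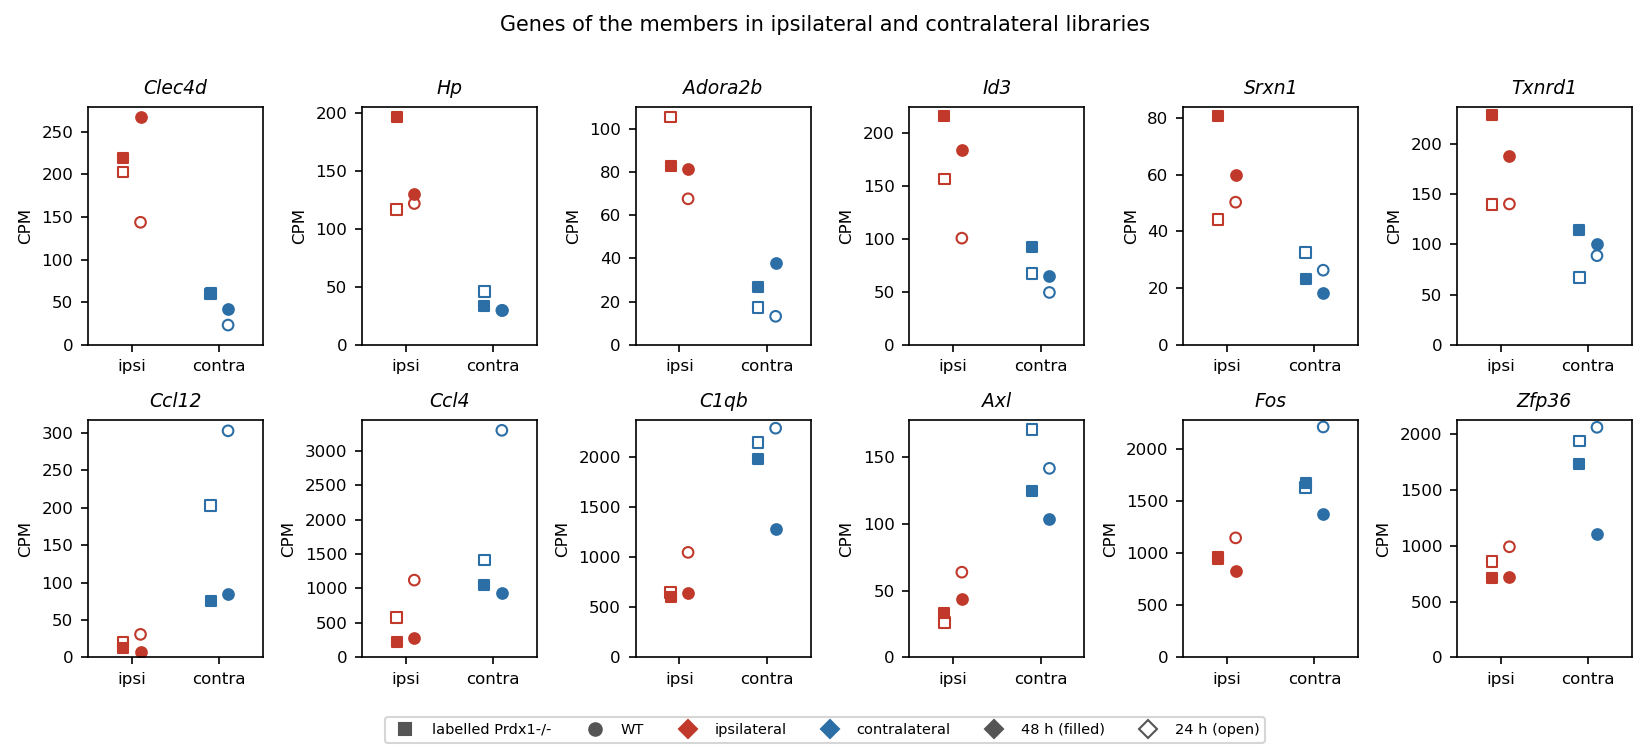
Level (CPM, linear axes from 0) of 12 genes in the class II monocyte-derived cells of each library, ipsilateral (red) left of contralateral (blue), with squares for libraries labelled Prdx1-/- and circles for WT, filled at 48 h and open at 24 h. In the upper row each ipsilateral point lies above each contralateral one, and in the lower row the order is the opposite except for Ccl4.

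Between the times, 33 genes (0.38%) rose at 48 h and 41 (0.472%) fell, together 0.852% of 8685. Without both 24 h libraries labelled Prdx1-/-, 150 genes passed, and without the ipsilateral WT library of either time 27 did. Cxcl2, a neutrophil attractant, had 1608, 1396, 915 and 1150.2 CPM at 48 h (ipsilateral labelled Prdx1-/-, ipsilateral WT, contralateral labelled Prdx1-/- and contralateral WT), against 3596, 2132, 2584 and 2264 CPM at 24 h (log2 difference -1.06 ± 0.14 SE, adjusted p = 0.00279). Il1b, interleukin 1 beta, had 4378, 4889.6, 3113 and 3838 CPM at 48 h, against 7281, 5223, 5964 and 6202 CPM at 24 h (-0.62 ± 0.12, adjusted p = 0.0189). Neither overlapped between times, but neither passed without both 24 h libraries labelled Prdx1-/- (Cxcl2 -0.80, adjusted p = 0.169, and Il1b -0.40, adjusted p = 0.55). Without the ipsilateral 24 h library labelled Prdx1-/- alone, the adjusted p was 0.0557 for Cxcl2 and 0.295 for Il1b, and Il1b also missed the threshold without any 1 of 4 others (adjusted p up to 0.121). Of 22 cytokines and chemokines 5 fell and none rose, the others being Ccl12 (-1.59 ± 0.18), Ccl22 (-2.07) and Ccl9 (-0.54). Of these, Ccl12 passed whichever library was left out, Ccl22 had an adjusted p of 0.0589 without the ipsilateral 24 h WT library, and Ccl9 missed it in 7 of the 8 leave-outs (adjusted p up to 0.252).

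Hk2, hexokinase 2, had 73.3, 62.5, 73.9 and 80.1 CPM at 48 h, against 140.4, 137, 144 and 115 CPM at 24 h (-0.92 ± 0.13, adjusted p = 0.00106), and passed also without both 24 h libraries labelled Prdx1-/-. It was the 1 gene of 20 on the glycolysis and hypoxia list to fall, with none rising. Lars2, a mitochondrial tRNA synthetase, fell as well (-0.86 ± 0.14). Gm42418, a transcript that overlaps ribosomal RNA genes, had 3343, 3315, 5245 and 3437 CPM at 48 h, against 6346, 7866, 13182 and 11562 CPM at 24 h (-1.31 ± 0.14). The times did not overlap in Gm42418, and the part of such reads in the other time differences was not tested.

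Emp1, an epithelial membrane protein gene, had 75.7, 115, 82.0 and 93.3 CPM at 48 h, against 50.6, 39.7, 34.5 and 69.1 CPM at 24 h (0.96 ± 0.17, adjusted p = 0.0076; 0.103 without the ipsilateral 24 h WT library and 0.0854 without the ipsilateral 48 h WT library). Gclm had 77.4, 44.3, 27.9 and 28.2 CPM at 48 h, against 29.3, 21.8, 17.3 and 16.5 CPM at 24 h (1.13 ± 0.19, adjusted p = 0.00491), and did not pass without both 24 h libraries labelled Prdx1-/- (adjusted p = 0.074), nor without the ipsilateral library labelled Prdx1-/- of 48 h (0.163) or 24 h (0.0693) or the ipsilateral 24 h WT library (0.0653). It was the 1 of 17 NRF2 targets to rise. 2010111I01Rik rose by 1.17 ± 0.19 and passed whichever library was left out. Gpnmb, a glycoprotein of lipid-laden macrophages, was the 1 of 12 lipid-associated genes to rise (2.64), with 4.15, 17.3, 8.72 and 6.57 CPM at 48 h, against 0.496, 3.36, 1.92 and 0 CPM at 24 h. The ipsilateral 48 h WT library was the highest, and without it Gpnmb did not pass (adjusted p = 0.617), nor without the ipsilateral 24 h library labelled Prdx1-/- (0.163) or WT (0.137). Over all 8 libraries, none of the 17 type I interferon genes passed, at a list median of 0.48, and none of the 10 class II genes did.

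**Figure D5:**
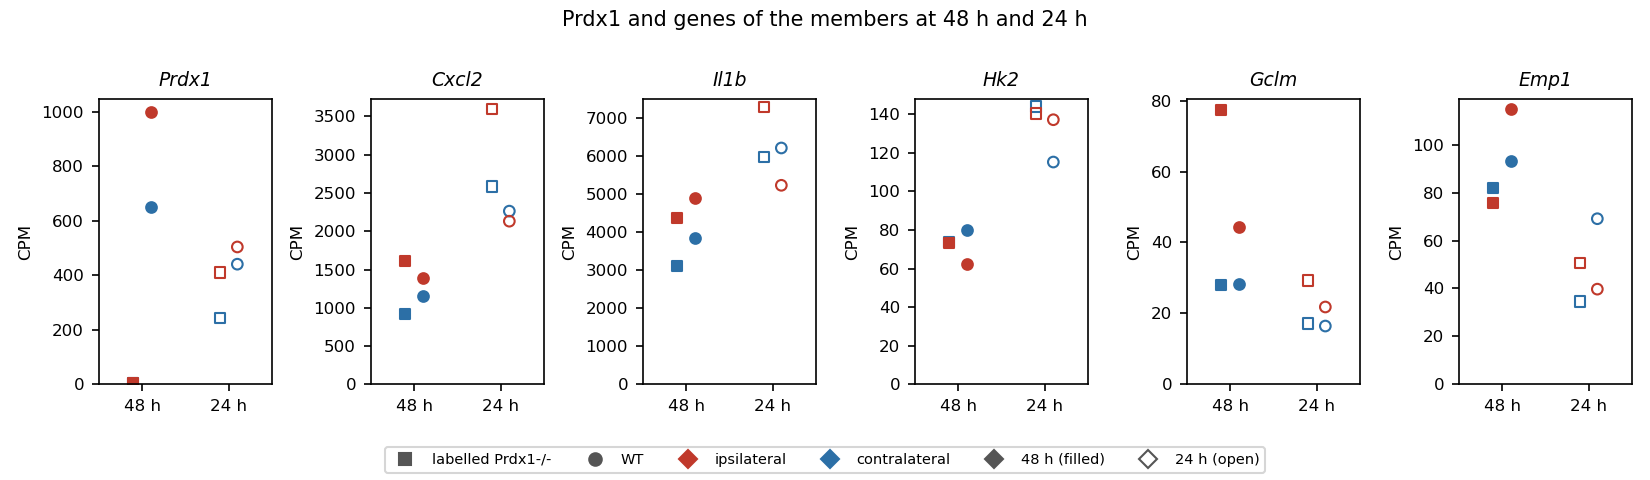
Level (CPM, linear axes from 0) of Prdx1 and 5 genes in the class II monocyte-derived cells of each library at 48 h (filled, left) and 24 h (open, right), with squares for libraries labelled Prdx1-/-, circles for WT, red for ipsilateral and blue for contralateral. Both 48 h squares of Prdx1 lie near 0, under 7 CPM, and both 24 h squares lie above 240 CPM, while Cxcl2, Il1b and Hk2 are lower and Emp1 higher at 48 h without overlap.

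Between the labelled genotypes, 0 of 8685 genes (0%) passed in edgeR's quasi-likelihood test after Benjamini-Hochberg adjustment over all 8 libraries, with 292 at an unadjusted p under 0.05 and 1 gene by DESeq2. Simulated data of the same size had a fixed spread that was not estimated from these libraries. Their changes were additive and placed only in genes above a set level. There the test recovered 58 of 97 changes of log2 1 and each of 103 changes of log2 2, which does not give its rate in the real data. That rate did not hold for Prdx1, whose change lay mainly in the 48 h libraries. The count of 0 therefore does not exclude other changes of that kind. Prdx1 itself did not pass (-3.29 ± 1.87, adjusted p = 1), its 24 h values being those given above. When both 24 h libraries labelled Prdx1-/- were left out, 47 genes passed, 27 higher and 20 lower, and Prdx1 fell by 7.10 on the log2 scale (adjusted p = 5.31e-16). With the 48 h libraries alone 148 genes passed.

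Genes named for genotype were those with the smallest p in each direction. Elavl4, an RNA-binding protein of neurons, had 6.91, 15.1, 1.24 and 15.3 CPM in libraries labelled Prdx1-/- (ipsilateral 48 h, contralateral 48 h, ipsilateral 24 h and contralateral 24 h), against 0 in each of the 4 WT libraries (adjusted p = 0.0612). Kcna1, a neuronal potassium channel, had 8.29, 16.3, 0 and 0 CPM, against 0.146, 0, 0.559 and 0 CPM, and Cldn11, a claudin of oligodendrocytes, had 14.9, 10.5, 0.744 and 0 CPM, against 0.582, 0.657, 1.12 and 0 CPM. The 3 genes passed with both 24 h libraries labelled Prdx1-/- left out. The 6 oligodendrocyte markers, all detected, summed to 217 and 207 CPM in the 48 h libraries labelled Prdx1-/-, and to 29.8 to 89.0 CPM in the other 6 libraries. Their part in these differences was not tested. Il1a, interleukin 1 alpha, had 67.7, 30.2, 137 and 139.9 CPM in libraries labelled Prdx1-/-, against 32.9, 24.96, 58.2 and 23.0 CPM in WT libraries (1.14 ± 0.24, adjusted p = 0.403). It was higher in 4 of 4 matched pairs and did not pass over all 8 libraries. It passed with the ipsilateral libraries alone (1.13, adjusted p = 3.1e-06), with the 48 h libraries alone (0.80, 0.0192), with at least 50 cells per library (0.95, 0.02), with no filter on low counts (1.13, 3.33e-09) and without the contralateral library labelled Prdx1-/- of 24 h (0.99, 0.0196) or of 48 h (1.33, 0.003). Among the lower genes, Plk2, a stress-induced kinase, had 12.8, 11.1, 18.6 and 26.8 CPM in libraries labelled Prdx1-/-, against 18.6, 21.7, 35.8 and 55.9 CPM in WT libraries (-0.85, adjusted p = 0.334). Without both 24 h libraries labelled Prdx1-/-, the lower genes that passed included Ms4a4c (-0.78), Plac8 (-0.74), both markers of classical monocytes, and Oasl2 (-0.82), an interferon-induced gene.

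No gene of the class II list or of the monocyte-derived dendritic list passed over all 8 libraries, with list medians of -0.16 and -0.04. Srxn1 had 80.9, 23.3, 44.2 and 32.6 CPM in libraries labelled Prdx1-/-, against 60.1, 18.4, 50.4 and 26.3 CPM in WT libraries (adjusted p = 1), and was higher ipsilaterally in both labelled genotypes at both times. Of 17 NRF2 targets none passed by genotype.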

How the data were processed

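Gene by cell tables of UMI counts were used as deposited, 1 for each of 8 libraries and 20340 genes. Per the submitters' processing notes the authors used Cell Ranger, Seurat and the mm10 build, with versions, annotation and cell filters not given in the sources used here. Cells of the rule, class II-low cells, dendritic cells and microglial cells were counted per library. Dendritic cells had at least 2 UMIs of Xcr1, Clec9a and Ccr7. Microglial cells had a microglial sum of at least 30 per 10000 UMIs. The UMI counts of each population were summed per library, each sum holding at least 20 cells.

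Sums were tested with edgeR 4.0.16 (filterByExpr, TMM, robust quasi-likelihood fit of hemisphere, time and genotype, or of population with library as block, Benjamini-Hochberg over all genes tested, threshold 0.05) in R 4.3.3, with DESeq2 1.42.0 as an alternative. Shares were compared with exact two-sided permutation tests over libraries, adjusted over 3 factors. These tests did not use the matching of libraries on the other factors. The tests were also run on simulated data, with a fixed spread not estimated from these libraries and changes only in genes above a set level. Intervals cover counting error only.

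The members and the 18 gene lists (284 genes, of which 1, Ifi30, was not in the tables) were chosen with earlier results of these data known. Named genes had an adjusted p under 0.05, a mean of at least 50 CPM and 1 sign in every pair, taking the 8 largest in each direction, plus up to 4 per list by p. Further genes were named after their values had been seen where a list's count was to be accounted for. The fractions of class II-low and Cd209a cells, the fits without both 24 h libraries labelled Prdx1-/- and the tracer ratios were added after the data had been seen. The labels name no separate cultures or animals behind libraries, so that p-values measure the spread between libraries. Deposited depth was 39433266 to 70111421 UMIs per library. Doublets were scored by comparison with simulated pairs of cells, and were left out as an alternative only.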

Additional observations from a re-analysis of the deposited data

Results flagged for a closer look

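The fraction of class II monocyte-derived cells among these and class II-low cells moved in opposite directions with time in the hemispheres. On the log2 scale, 48 h minus 24 h, it was -0.815 in libraries labelled Prdx1-/- and -0.193 in WT libraries ipsilaterally, and 0.114 in libraries labelled Prdx1-/- and 0.338 in WT libraries contralaterally. This difference between hemispheres was not tested.

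Among 70 groups of 4 libraries examined, 3 held a library far from the other 3, where chance gives about 1 in 20. Hp stood at 197 CPM in the ipsilateral 48 h library labelled Prdx1-/-. C1qb stood at 1051 CPM in the ipsilateral 24 h WT library. Gm42418 stood at 5245 CPM in the contralateral 48 h library labelled Prdx1-/-, above the other 48 h libraries.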

How the results depend on the processing

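The labels give no replicate numbers, so no analysis paired by replicate was run. Instead, populations were compared within libraries, with the library as a block, and shares also within pairs of libraries matched on the other factors. Without the library block, 2181 genes passed against class II-low cells, 400 against dendritic cells and 984 between cells with and without Cd209a. By DESeq2, 357, 1091 and 1 passed against dendritic cells, by Cd209a and by genotype, and after thinning to 3000 UMIs, 1977 against class II-low cells and 718 by Cd209a. Against dendritic cells, leaving out a library or asking for 50 cells left under 2 libraries.

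For hemisphere, time and genotype, 696, 217 and 54 genes passed with no filter on low counts. With at least 50 cells per library 212 passed by hemisphere and 10 by genotype. With 48 h libraries only it was 593 by hemisphere and 148 by genotype, with ipsilateral libraries only 153 by time and 43 by genotype, and without both 24 h libraries labelled Prdx1-/- 150 by time and 47 by genotype. Leaving out 1 library gave 136 to 498 genes by hemisphere, 27 to 94 by time and 0 to 10 by genotype.

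The log2 difference of the share by hemisphere was -0.548 among non-microglial cells and 1.41 to 2.22 with 1 library left out. That by genotype was -0.0703 among non-microglial cells, -0.563 at 48 h only and -0.609 to 0.763 with 1 library left out. The class II fraction by hemisphere was -0.223 after thinning (exact permutation p = 0.543), -0.454 within pairs, where 4 pairs cannot reach 0.05 and the test says nothing of stability, and -0.558 to -0.247 with 1 library left out, and by time -0.305 to 0.121. The Cd209a share with 1 library left out was -0.341 to 0.0748 by hemisphere and -0.162 to 0.254 by time, and -0.206 by time after thinning. The causes were not tested. Sums of 24 and 38 cells limit the 24 h contralateral values, and 2 libraries limit the comparison with dendritic cells, where the simulated data gave 0 of 104 changes of log2 1 and 42 of 96 of log2 2.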
